A study of Mus musculus with 12 samples.

Results

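Tight junction genes were described in 2 cell populations of mice with renal ischemia-reperfusion injury (IRI), each compared between glutamine and vehicle treatment. The 10 genes were chosen by name: 7 claudins (Cldn1, Cldn2, Cldn3, Cldn4, Cldn7, Cldn8 and Cldn10), occludin (Ocln), the scaffold Tjp1 and the adhesion molecule F11r. Of these 10, 9 had a row among the 50433 gene rows of renal tubular epithelial cells (TECs) and all 9 passed the expression filter that left 14734 genes for testing. The same 9 had a row among the 50434 rows of polymorphonuclear neutrophils (PMN), where 1 of them, F11r, was among the 10130 genes tested. Cldn2 had no row in either table and was not analysed here. It lies on the X chromosome, and 0 of the 948 protein-coding genes that GENCODE M21 places there had a row in the TEC table.

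Wild-type mice, which the study's methods give as male C57BL/6J aged 8 to 12 weeks, had both renal pedicles clamped for a time and then released. They received intravenous glutamine, given as the dipeptide alanyl-glutamine, or the saline vehicle, and cells were taken 24 hours after IRI. All 4 groups had IRI, so that no uninjured level is part of these comparisons. TECs were sorted from kidney as CD45-negative and Prominin-1-positive cells (vehicle replicates 3, 4 and 5 and glutamine replicates 1, 2 and 3). PMN came from blood (3 vehicle and 3 glutamine libraries). The labels do not say whether a library is 1 mouse or a pool, so that p-values measure the spread between these libraries. Prominin-1 marks above all proximal tubule cells, whereas several of the claudins described here are known from more distal segments.

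Tight junctions seal the space between neighbouring epithelial cells at their apical border. Claudins span the membrane and pair across the cleft. Some of them close it to ions, and others form pores that let selected ions or water pass, so that each nephron segment owes its paracellular permeability to the claudins it makes. Occludin and F11r (junctional adhesion molecule A, JAM-A) are further membrane proteins of the junction, and Tjp1 (zonula occludens 1, ZO-1) ties them to the actin cytoskeleton from inside the cell. After ischemia tubular cells lose polarity, and junction proteins leave the apical border.

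The TEC libraries held 5397370 to 10223461 counts and the PMN libraries 20225246 to 21878446 counts. In the TEC libraries Prom1 had a mean of 70.4 CPM (counts scaled to a common library size) with vehicle and 80.2 CPM with glutamine, while Ptprc, the gene of CD45, had 1.03 and 2.28 CPM. All 10 proximal tubule markers were present, with summed levels of 4165 to 6154 CPM with vehicle and 4326 to 6894 CPM with glutamine. Markers of the thick ascending limb summed to 1046 to 2288 CPM and those of the collecting duct principal cell to 105 to 310 CPM over the 6 libraries, so that more than 1 segment was sampled. Fewer cells of a segment and less RNA per cell cannot be told apart in such pooled samples. Among the PMN libraries 2 stood apart. Vehicle 2 carried glomerular genes (Kdr 619 CPM, Podxl 812 CPM), which were at 7.78 CPM or less in the other 5. Vehicle 1 carried distal nephron genes (Umod 1025 CPM, Slc12a3 193 CPM), against at most 33.4 and 4.57 CPM in the other 5. Markers of neutrophils were high in all 6 PMN libraries, with sums of 20728 to 69918 CPM. So was the list of macrophages and dendritic cells, with sums of 6315 to 13603 CPM, among them C1qa at 287 to 2572 CPM and H2-Ab1 at 1121 to 3978 CPM. Ptprc, a gene of all leukocytes, had 317 to 569 CPM with vehicle and 754 to 1150.5 CPM with glutamine, without overlap.

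The promoters of Cldn4, F11r and Cldn1 are shown because Cldn4 and F11r were the most abundant of the 9 measured genes in TECs and Cldn1 had the largest difference between treatments. A RefSeq promoter window (GRCm38.p6) was found for 9 of the 10 genes, with 12 windows in all, and Cldn8 had no entry. The 250 bases before each start were searched on both strands for AACCNGTT (the grainyhead-like motif), GTTAAT (a half-site of HNF1), TGANTCA (AP-1), GGGCGG (SP1), CAGGTG (the Snail E-box) and TATAAA (the TATA box). None of these motifs overlapped another in the stretches printed. Bases inside the GENCODE M21 span of the gene are not printed (2 for Cldn1 and 26 for F11r), and capitals mark the motif matches. Cldn4 is read on the minus strand of chr5:134946935-134947184, F11r on the plus strand of chr1:171437311-171437534 and Cldn1 on the minus strand of chr16:26371842-26372089.
Cldn4: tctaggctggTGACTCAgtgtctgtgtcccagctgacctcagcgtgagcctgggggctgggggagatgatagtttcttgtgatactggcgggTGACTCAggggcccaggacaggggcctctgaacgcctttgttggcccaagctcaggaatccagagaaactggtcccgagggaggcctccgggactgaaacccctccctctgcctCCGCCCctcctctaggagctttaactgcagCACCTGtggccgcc
F11r: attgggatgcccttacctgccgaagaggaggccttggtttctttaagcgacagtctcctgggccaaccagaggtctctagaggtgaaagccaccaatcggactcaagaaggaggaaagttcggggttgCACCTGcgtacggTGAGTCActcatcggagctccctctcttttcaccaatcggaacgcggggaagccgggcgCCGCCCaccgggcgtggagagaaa
Cldn1: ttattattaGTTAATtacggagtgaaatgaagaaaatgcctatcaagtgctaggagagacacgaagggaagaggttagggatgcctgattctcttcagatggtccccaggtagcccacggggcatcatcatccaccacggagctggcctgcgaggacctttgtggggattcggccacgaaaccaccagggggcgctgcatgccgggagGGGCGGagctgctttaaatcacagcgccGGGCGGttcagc
The Cldn4 stretch held 2 AP-1 matches, 1 SP1 match and 1 Snail E-box, and the F11r stretch held 1 of each. Among the 32817 promoters of the same length, 6.75% held the AP-1 letters, 32.7% the SP1 letters, 17.2% the Snail E-box and 0.213% all 3, a combination singled out after the windows were read. The Cldn1 stretch held 2 SP1 matches and 1 HNF1 half-site, whose letters are in 6.44% of promoters and which was otherwise found before the upstream start of Cldn10. The grainyhead-like letters, present in 1.78% of promoters, were in none of the 12 windows. A match of letters is a description of the window and not a binding site.

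Of the claudins with a row, which leaves out Cldn2, Cldn4 was the most abundant in TECs. Levels of different genes were compared as CPM per kilobase (kb) of merged exon, in vehicle libraries. Cldn4 had 92.9 ± 41.6 CPM per kb (SD, n = 3) and F11r 51.0 ± 2.16. They were followed by Cldn7 with 10.5 ± 3.93, Cldn3 with 9.33 ± 1.54, Cldn8 with 5.36 ± 2.26 and Cldn10 with 4.96 ± 1.53 CPM per kb. Cldn1 with 3.07 ± 0.307, Tjp1 with 2.63 ± 0.408 and Ocln with 2.33 ± 0.359 CPM per kb had the lowest levels. Only 2 steps in this order exceeded the range of the libraries. The lowest vehicle library of F11r (48.7 CPM per kb) lay above the highest of Cldn7 (14.7), and the lowest of Cldn3 (7.69) above the highest of Cldn8 (7.54). All other neighbours in the order overlapped, Cldn4 and F11r among them, since Cldn4 had 48.5 CPM per kb in vehicle replicate 4. With the longest transcript in place of the merged exons, Cldn10 came before Cldn8.

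**Figure D1:**
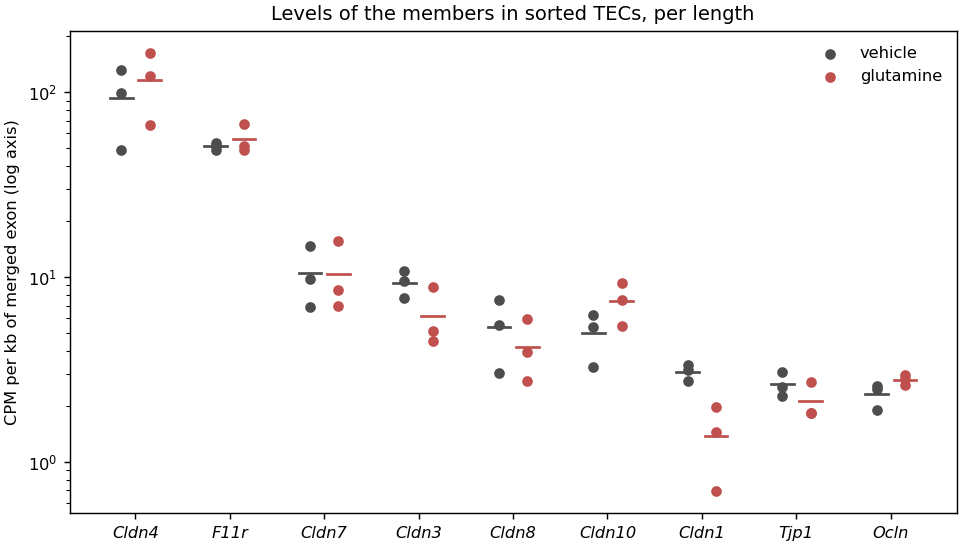
Levels of the 9 genes in sorted TECs as CPM per kb of merged exon on a log axis, ordered by the vehicle mean. Points are the 3 libraries of each group (grey vehicle, red glutamine) and short lines their means. Cldn4 and F11r lie above all other genes in all 6 libraries, and the lowest single value is Cldn1 in glutamine replicate 1 (0.695 CPM per kb).

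The treatments were compared in TECs by the quasi-likelihood test of edgeR, and p-values were adjusted over the 14734 genes tested (Benjamini-Hochberg). None of the 9 genes passed an adjusted p of 0.05, as was the case for all genes tested (0 genes, 0%). At an unadjusted p below 0.05 there was 1 of the 9, Cldn1, which was lower with glutamine, against 5.51% of all genes tested in that direction and 12.7% in either. DESeq2 called 0 of the 9 and 2.37% of all genes to which it gave an adjusted p. Log2 fold changes of glutamine over vehicle were positive for 4 of the 9 and negative for 5 (49.4% of all genes tested were negative), with a median of -0.01 against 0.01 over all genes tested. The values that follow are CPM after TMM scaling and compare libraries within a gene.

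**Figure D2:**
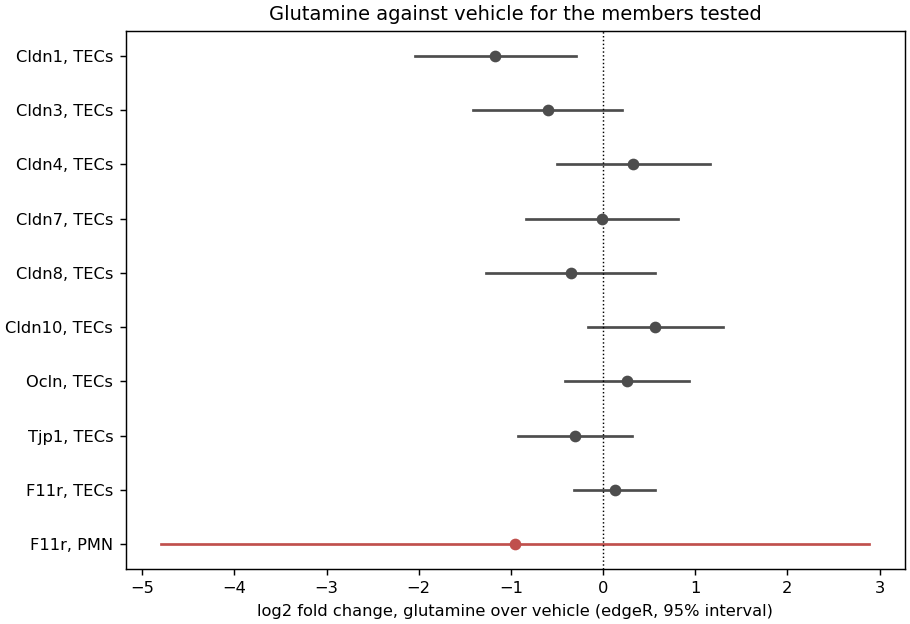
Log2 fold change of glutamine over vehicle with its 95% interval from edgeR for the 9 genes tested in TECs (grey) and for F11r in PMN (red). The interval of Cldn1 (-2.05 to -0.29) leaves out 0 before adjustment, and those of the other genes include it.

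Cldn1 (chr16:26356642-26371841, GRCm38), a barrier-forming claudin whose loss lets water escape through mouse skin, was lower with glutamine in every library. It had 16.2, 15.1 and 13.2 CPM in vehicle replicates 3, 4 and 5, from 164, 169 and 130 counts. In glutamine replicates 1, 2 and 3 it had 3.36, 9.64 and 7.02 CPM, from 28, 48 and 64 counts. The groups did not overlap, and the highest glutamine library was below the lowest vehicle library. Glutamine libraries that lay wholly below the vehicle libraries were found for 9.81% of all genes tested. The means were 14.9 ± 1.49 CPM (vehicle) and 6.67 ± 3.15 CPM (glutamine, SD, n = 3 each), and the fitted level was 2.25-fold higher with vehicle. The log2 fold change was -1.17 (SE 0.40, 95% interval -2.05 to -0.29), with an unadjusted p of 0.0135 and an adjusted p of 0.273 (edgeR). The two-sided p of an exact permutation test on the 6 values was 0.1, which is the lowest that 3 against 3 libraries allow. The log2 fold change stayed negative in each of the 12 alternative fits (-1.51 to -0.84, adjusted p 0.130 to 0.571), with the value nearest 0 obtained without glutamine replicate 1.

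Levels of 1 marker list moved in parallel with Cldn1. The 4 thin limb markers summed to 330, 273 and 238 CPM in vehicle replicates 3, 4 and 5 and to 137, 202 and 185 CPM in glutamine replicates 1, 2 and 3, also without overlap. Of that list Slc14a2, Bst1 and Cryab had lower means with glutamine, and 1 marker had a higher mean. Of the 14 marker lists, the thin limb list came nearest to Cldn1, with a root mean square difference of 0.386 in centred log2 CPM over the 6 libraries. The part of the thin limb in the Cldn1 difference was not tested.

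Cldn3 (chr5:134986214-134987472), another sealing claudin, had 12.03, 13.5 and 9.68 CPM in vehicle replicates 3, 4 and 5 and 11.1, 6.43 and 5.70 CPM in glutamine replicates 1, 2 and 3. Glutamine replicate 1 lay among the vehicle libraries and the other 2 below them. Its log2 fold change was -0.60 (95% interval -1.41 to 0.21, edgeR adjusted p 0.513). Exons of Cldn3 overlap the antisense gene Wbscr25, whose counts were at most 10 in any library. Strand-specific counting is not stated in the sources used here. The marker list nearest to Cldn3 was the sparse stroma list (root mean square difference 0.348), followed by the thin limb list (0.468).

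Cldn4 (chr5:134945119-134946934), the neighbour of Cldn3 on the other strand, restricts sodium and, with Cldn8, forms a paracellular chloride path in the collecting duct. It had 180, 88.1 and 238 CPM in vehicle replicates 3, 4 and 5 and 295, 222 and 120 CPM in glutamine replicates 1, 2 and 3. The groups overlapped widely, with the lowest value in a vehicle library and the highest in a glutamine library. Means were 169 ± 75.6 and 212 ± 88.0 CPM (SD, n = 3), and the log2 fold change was 0.33 (95% interval -0.50 to 1.16, edgeR adjusted p 0.739). The spread within a group thus exceeded the difference between groups, although at least 984 counts lay behind each value. Among 3099 genes whose mean CPM was at most 4-fold below that of Cldn4, the profile of Cldn4 over the 6 TEC libraries was closest to Pelp1 (root mean square difference 0.143 in centred log2 CPM), Calr (0.245) and Eif3a (0.249). Pelp1 had 55.1, 32.2 and 70.2 CPM in the vehicle libraries and 104, 83.2 and 45.5 CPM in the glutamine libraries, in the order given for Cldn4. The marker lists nearest to Cldn4 were those of T and B cells (0.250) and of macrophages and dendritic cells (0.297), and their part in its values was not tested.

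Cldn7 (chr11:69964779-69967885) and Cldn8 (chr16:88560828-88563183) are claudins of the distal nephron and collecting duct, and they varied together. Cldn7 had 28.6, 19.1 and 13.4 CPM in vehicle replicates 3, 4 and 5 and 30.6, 16.5 and 13.5 CPM in glutamine replicates 1, 2 and 3. Cldn8 had 17.8, 13.0 and 7.13 CPM and then 13.9, 9.24 and 6.47 CPM in the same libraries. Both were highest in vehicle replicate 3 or glutamine replicate 1, and both were low in vehicle replicate 5 and glutamine replicate 3. Their centred log2 CPM differed by a root mean square of 0.197 over the 6 libraries, the smallest difference of any pair among the 9 genes. Between treatments it was -0.01 on the log2 scale for Cldn7 (95% interval -0.84 to 0.82, edgeR adjusted p 0.993) and -0.35 for Cldn8 (95% interval -1.27 to 0.56, edgeR adjusted p 0.750). For neither gene did the groups differ beyond their spread, and both intervals leave room for shifts in either direction.
Collecting duct markers followed the same libraries. The principal cell list, led by Aqp2, summed to 219, 144 and 107 CPM in vehicle replicates 3, 4 and 5 and to 310, 132 and 105 CPM in glutamine replicates 1, 2 and 3. The intercalated cell list summed to 75.9, 58.8 and 31.1 CPM and then to 81.3, 57.0 and 33.9 CPM. The root mean square difference between Cldn7 and the principal cell list was 0.147 and that between Cldn8 and the intercalated cell list 0.206, with a stroma list nearer still to Cldn8 (0.199). The part of the collecting duct share in these values was not tested.

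**Figure D3:**
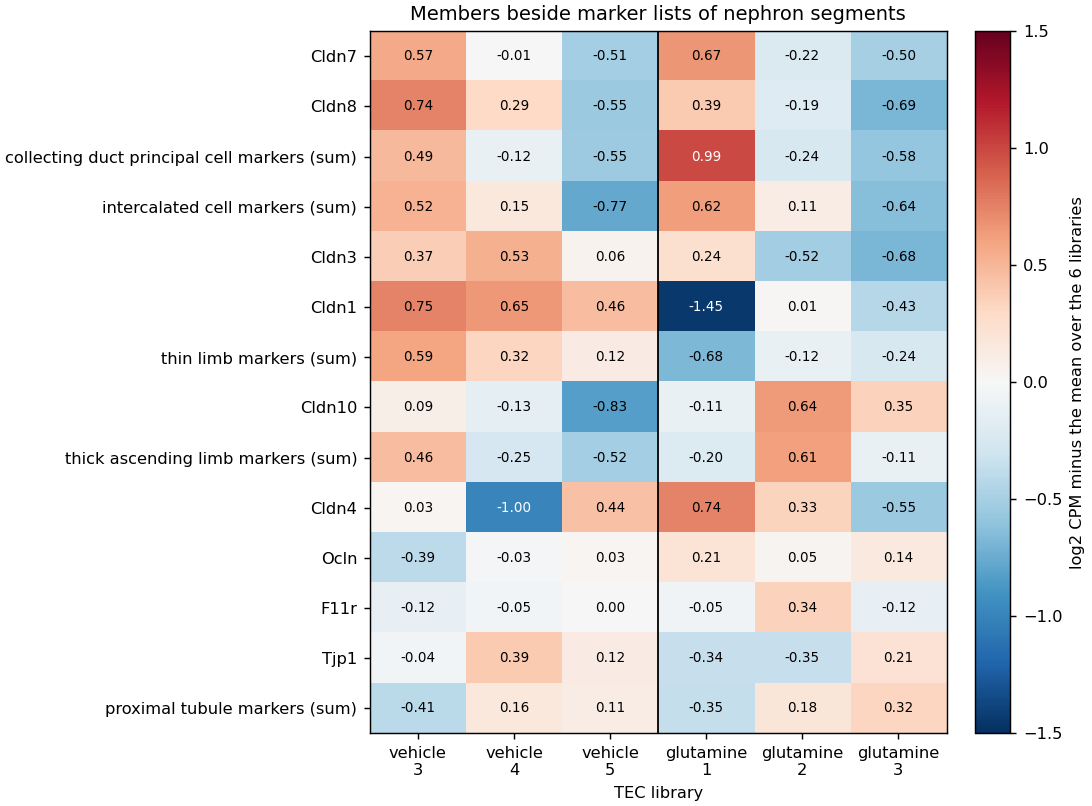
Log2 CPM minus the mean over the 6 TEC libraries for each of the 9 genes and for the summed markers of 5 nephron segments, with vehicle libraries left of the line and glutamine libraries right of it. Cldn7 and Cldn8 share the colours of the collecting duct lists, and Cldn1 runs from 0.75 in vehicle replicate 3 to -1.45 in glutamine replicate 1.

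Cldn10 (chr14:118787908-118875489) is made from separate starts as forms that favour cations in the thick ascending limb or anions in the proximal tubule, and the counts pool both. It had 16.2, 13.9 and 8.46 CPM in vehicle replicates 3, 4 and 5 and 14.1, 23.9 and 19.4 CPM in glutamine replicates 1, 2 and 3. Glutamine replicates 2 and 3 were above all vehicle libraries and glutamine replicate 1 was among them. This gave a log2 fold change of 0.57 (95% interval -0.17 to 1.30, edgeR adjusted p 0.496). The 2 RefSeq windows of Cldn10 differed in base composition, with 36.0% G and C before the upstream start and 72.4% before the downstream start. The nearest marker list was that of the thick ascending limb (root mean square difference 0.279), which summed to 2057, 1259 and 1046 CPM with vehicle and to 1302, 2288 and 1388 CPM with glutamine. Its part in the Cldn10 values was not tested.

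Ocln (chr13:100496507-100552718) varied little and was slightly higher with glutamine in every library. It had 8.09, 10.5 and 10.9 CPM in vehicle replicates 3, 4 and 5 and 12.4, 11.05 and 11.8 CPM in glutamine replicates 1, 2 and 3. Glutamine libraries that lay wholly above the vehicle libraries were found for 9.01% of all genes tested. The log2 fold change was 0.26 (95% interval -0.42 to 0.94, edgeR adjusted p 0.751), and its two-sided exact permutation p was also 0.1. Tjp1 (chr7:65296165-65527781) had 17.8, 24.0 and 19.8 CPM with vehicle and 14.3, 14.3 and 21.2 CPM with glutamine in the same order. Its groups overlapped through glutamine replicate 3, and the log2 fold change was -0.30 (95% interval -0.93 to 0.32, edgeR adjusted p 0.678).

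F11r (chr1:171437535-171464603) was the steadiest of the 9 genes. It had 130, 137 and 141 CPM in vehicle replicates 3, 4 and 5 and 136, 179 and 130 CPM in glutamine replicates 1, 2 and 3. All libraries but glutamine replicate 2 lay between 130 and 141 CPM. With all 6 libraries the log2 fold change was 0.12 (95% interval -0.32 to 0.57, edgeR adjusted p 0.824) and became -0.03 without glutamine replicate 2. Its estimated counts had fractions in 6 of 6 libraries, so that some reads were shared with other transcripts. Ocln, Tjp1 and F11r came nearest to the proximal tubule list, with root mean square differences of 0.259, 0.284 and 0.272. The endothelium list was almost level with it for Tjp1 (0.288) and F11r (0.291) and farther from Ocln (0.379). Ocln, Tjp1 and F11r had the smallest ranges of the 9 genes over the 6 libraries, at 0.60, 0.74 and 0.46 in log2 CPM. A nearly flat profile lies near any list that varies little, so that these distances do not show a shared pattern.

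**Figure D4:**
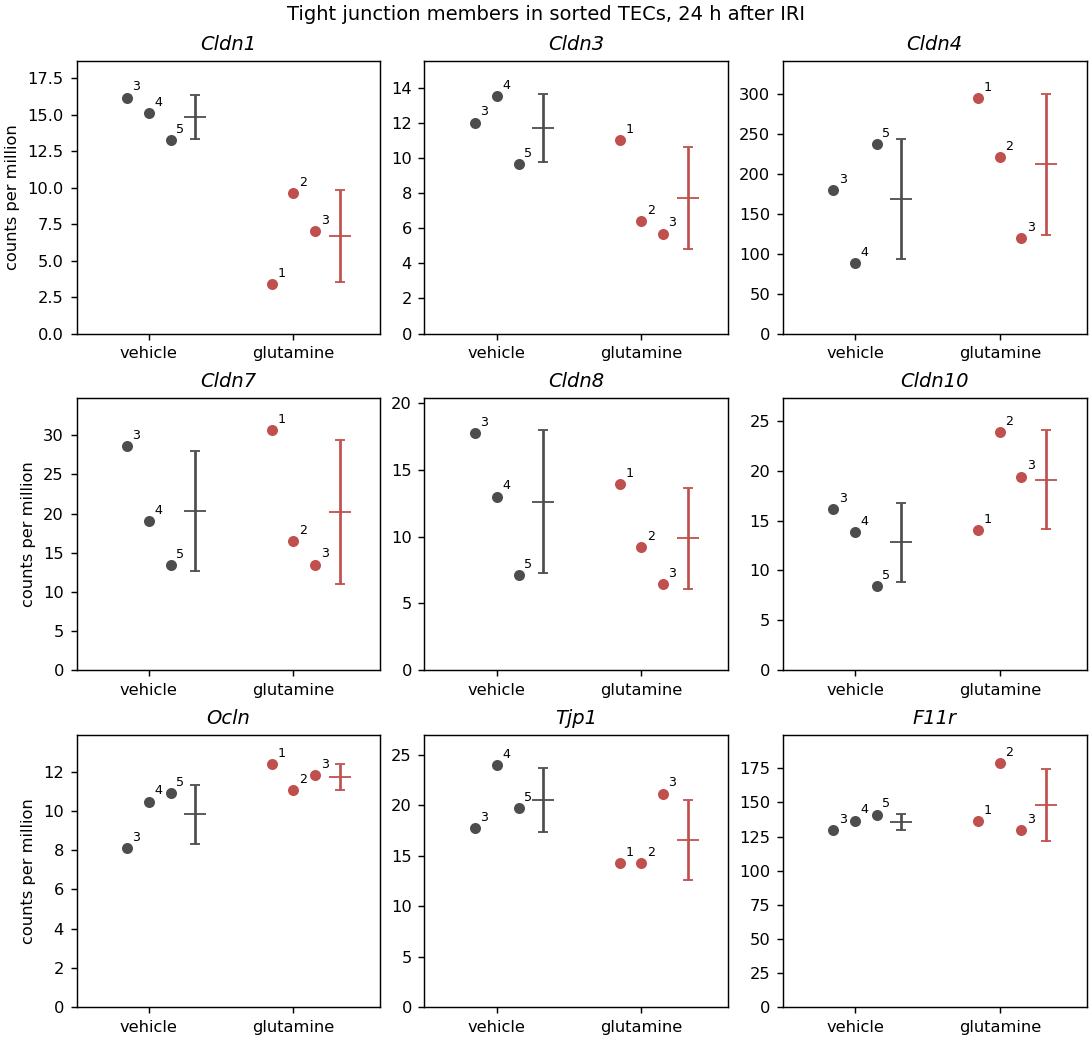
CPM of each of the 9 genes in the 6 TEC libraries, with linear axes from 0. Points are libraries labelled by replicate number, and bars give mean ± SD of the 3 libraries of each group. Cldn1 (13.2 to 16.2 against 3.36 to 9.64 CPM) and Ocln (8.09 to 10.9 against 11.05 to 12.4 CPM) are the genes whose groups do not overlap.

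Other genes of the junction were taken from 4 lists with 74 genes, of which 65 had a row and 51 were tested in TECs. None passed an adjusted p of 0.05 in edgeR, and 24 were higher and 27 lower with glutamine (median log2 fold change -0.03, against 0.01 over all genes tested). At an unadjusted p below 0.05 there were 8, of which 4 were higher and 4 lower, against 7.23% and 5.51% of all genes tested in these directions. The higher ones were Cldn19, Mpp5, Prkcz and Cdh1 and the lower ones Jam2, Lsr, Ctnnd1 and Nectin1, with Prkcz and Nectin1 named after their values were seen. The groups did not overlap for 13 of the 51, of which 5 were higher and 8 lower with glutamine, against 9.01% and 9.81% of all genes tested. Without the expression filter 1 of the 60 then tested, Mpp5, was called (log2 fold change 0.97, edgeR adjusted p 0.0126), against 1.46% of all genes (425 of 29116).

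Among the 21 further claudins 16 had a row and 5 were tested, while 7 had at most 3 counts in every library. Per length, Cldn5 (8.20 ± 6.54 CPM per kb) and Cldn12 (7.73 ± 0.253 CPM per kb) had the highest vehicle means of the 5 (SD, n = 3). Cldn12 had 32.7 ± 1.07 CPM in vehicle and 28.9 ± 2.77 CPM in glutamine libraries, which did not overlap. Cldn15, a cation and water pore of the intestine, had 12.5 ± 7.003 and 7.85 ± 3.02 CPM. Cldn5, the claudin of endothelial tight junctions, had 10.2, 21.5 and 3.16 CPM with vehicle against 6.43 to 7.21 CPM with glutamine, so that its vehicle mean rested on replicate 4. Cldn19, which with Cldn16 carries calcium and magnesium through the thick ascending limb, had 6.41, 5.20 and 3.57 CPM with vehicle and 7.93, 10.04 and 10.6 CPM with glutamine. Its groups did not overlap, and the log2 fold change was 0.91 (SE 0.39, unadjusted p 0.0390, edgeR adjusted p 0.367). Cldn16, named here for its partner and not by its values, had a log2 fold change of 0.13 (edgeR adjusted p 0.944). Both also belong to the thick ascending limb list.

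Of the 27 scaffold and plaque genes 22 were tested, with 12 higher, 10 lower and a median log2 fold change of 0.04. Cgnl1 (paracingulin) had 146 ± 27.6 CPM in vehicle and 194 ± 12.7 CPM in glutamine libraries, and Afdn (afadin) had 96.5 ± 10.8 and 126 ± 17.5 CPM (SD, n = 3). For Cgnl1 and Afdn the 3 glutamine libraries lay above the 3 vehicle libraries, and the edgeR adjusted p was 0.429 and 0.453. Mpp5 encodes Pals1, which anchors the Crumbs polarity complex at the junction. It had 54.8, 44.6 and 71.5 CPM with vehicle and 127, 151 and 63.8 CPM with glutamine, so that glutamine replicate 3 lay within the vehicle range. Its log2 fold change was 1.0 (SE 0.31, unadjusted p 0.00874, edgeR adjusted p 0.249). Rab13, a small GTPase of junction recycling, had 37.8, 18.6 and 11.3 CPM against 10.2 to 14.3 CPM (log2 fold change -0.84, edgeR adjusted p 0.425).

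Of the 12 other membrane proteins 10 were tested, with 4 higher, 6 lower and a median of -0.08. Lsr, which marks the corners where 3 cells meet, had 78.5 to 81.7 CPM with vehicle and 52.5 to 60.7 CPM with glutamine. Its groups did not overlap, and the log2 fold change was -0.50 (SE 0.19, unadjusted p 0.0247, edgeR adjusted p 0.324). Marveld3, a relative of occludin, was scarce, with 3.16 to 3.94 CPM with vehicle and 1.43 to 2.21 CPM with glutamine, also without overlap (log2 fold change -1.09, edgeR adjusted p 0.461). Igsf5, a JAM family member, had 108 ± 35.5 and 117 ± 10.5 CPM (SD, n = 3). The adhesion molecules Esam and Jam2, both known from endothelium, had their highest values in vehicle replicate 4, at 117 and 23.6 CPM. The endothelium list also peaked in that library, with a sum of 509 CPM against 296 to 410 CPM in the other 5, and its part in the values of Esam, Jam2 and Cldn5 was not tested. Cldn5 is itself 1 of the 6 genes of that list.

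All 14 adherens junction neighbours were tested, with 6 higher, 8 lower and a median of -0.12. Cdh16, the kidney-specific cadherin, had 310 ± 83.9 CPM in vehicle and 361 ± 49.4 CPM in glutamine libraries (SD, n = 3). Cdh1 (E-cadherin) had 143, 186 and 196 CPM with vehicle and 338, 279 and 203 CPM with glutamine. All glutamine libraries lay above the vehicle libraries, with a log2 fold change of 0.64 (SE 0.23, unadjusted p 0.0195, edgeR adjusted p 0.302). Ctnnd1 (p120-catenin), which holds E-cadherin at the surface, had 49.2 to 66.2 CPM with vehicle and 27.9 to 42.4 CPM with glutamine, again without overlap. Its log2 fold change was -0.71 (SE 0.24, unadjusted p 0.0119, edgeR adjusted p 0.264). Ctnna1 (alpha-catenin) had 190 ± 10.5 and 165 ± 22.5 CPM (SD, n = 3), and Nectin4 had 1.22 to 3.06 CPM with vehicle and 1.004 to 1.20 CPM with glutamine, without overlap.

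In PMN the claudins were sporadic. Cldn3, Cldn4 and Ocln had 0 counts in all 6 libraries, which at 3 counts allows levels of up to 0.131 to 0.156 CPM. This limit covers counting error only. Cldn7 had 510 counts (25.6 CPM) in vehicle 1 and 0 in the other 5, and Cldn8 had 130.5 counts in vehicle 1, 8.5 in glutamine 2 and 0 in the other 4. Vehicle 1 is the library with the distal nephron genes named above, where the thick ascending limb list summed to 1027 CPM against 1.51 to 33.6 CPM in the other 5. Tjp1 had 1828 counts (83.3 CPM) in vehicle 2, the library with the glomerular genes, and at most 0.5 counts in the others. Cldn5 also had 2212 counts in vehicle 2 and 0 in the other 5, and the endothelium list, which includes Cldn5, summed there to 1929 CPM against 2.71 to 58.9 CPM. The collecting duct principal cell list, at 0.0476 to 6.12 CPM, was near 0 in all 6. The part of these other cell types in the claudin and Tjp1 counts was not tested.

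The remaining claudins of PMN did not follow the treatment either. Cldn1 had 23 counts in vehicle 3, 84.5 in glutamine 1, 1 in glutamine 3 and 0 in the other 3 libraries. Cldn10 had 11 counts in glutamine 2 alone, and Cldn15 had 628 counts in that library and at most 1 elsewhere. Such single-library values were frequent in this table. Of 11902 PMN genes with at least 100 counts in their highest library, 956 (8.03%) had 0 in the other 5, against 2 of 9757 (0.0205%) in TECs.

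F11r, which leukocytes and platelets also carry, was the gene of the 9 with counts in all 6 PMN libraries. It had 4654, 1879 and 842 counts in vehicle 1, 2 and 3, or 233, 85.7 and 40.1 CPM. In glutamine 1, 2 and 3 it had 3.44, 1820 and 1981 counts, or 0.158, 85.8 and 99.4 CPM. The groups overlapped, with the highest value in vehicle 1 and a nearly empty glutamine 1. The log2 fold change was -0.95 (SE 1.62, 95% interval -4.79 to 2.89, unadjusted p 0.575, edgeR), and it ranged from -1.46 (without glutamine 3) to -0.05 (without vehicle 1) when 1 library was left out, with -1.15 without vehicle 2 and -0.37 without glutamine 1. With limma-voom it was -2.87. At this spread neither a large fall nor a large rise could be told from no change. No gene in PMN passed an adjusted p of 0.05 in edgeR (0%), 3.42% had an unadjusted p below 0.05, and DESeq2 called 2.50%, without F11r. The platelet list summed to 522 to 1052 CPM with vehicle and 472 to 775 CPM with glutamine, and its part in F11r was not tested.

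**Figure D5:**
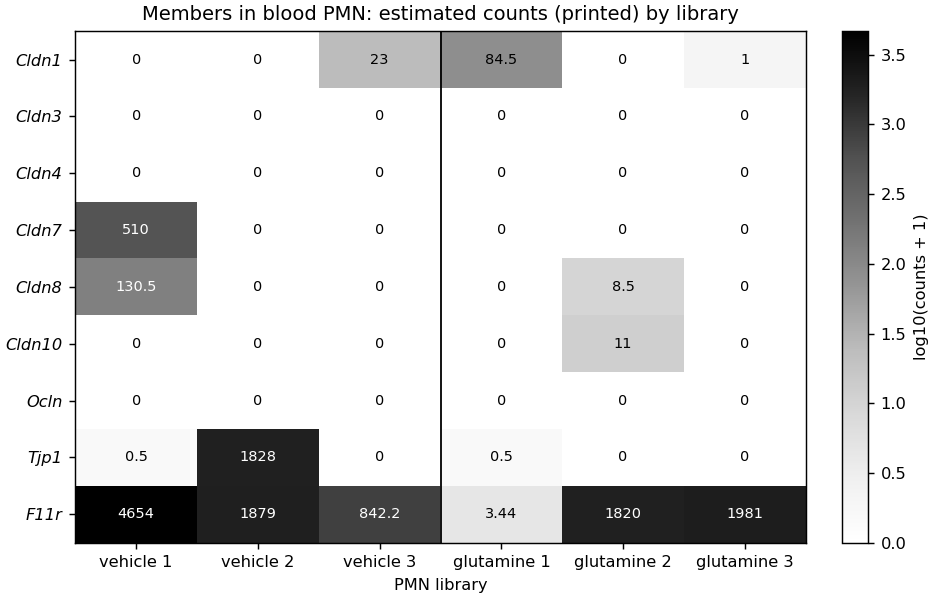
Estimated counts of the 9 genes in the 6 PMN libraries (printed in each cell, shaded by log10 of counts plus 1), with vehicle left of the line and glutamine right of it. F11r is present in all libraries at 3.44 to 4654 counts, while Cldn7, Cldn8 and Tjp1 each have 1 library with more than 100 counts.

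Of the other junction genes 14 were tested in PMN, with 5 higher, 9 lower and 0 called. Arhgef2, a guanine nucleotide exchange factor held at junctions, had 2.46, 66.6 and 84.6 CPM with vehicle and 201, 148 and 174 CPM with glutamine, without overlap. Glutamine libraries wholly above vehicle libraries were found for 5.87% of all PMN genes tested. Its log2 fold change was 1.77 (95% interval -0.81 to 4.35, unadjusted p 0.148, edgeR), with vehicle 1 far below the other 2 vehicle libraries. Lsr had 21.8 to 32.2 CPM with vehicle and 27.8 to 69.0 CPM with glutamine (95% interval of the log2 fold change -1.26 to 3.21). Ctnna1 had 130 ± 21.9 and 80.1 ± 39.5 CPM (SD, n = 3), and Jup (plakoglobin) had 0.0527 to 185 CPM over the 6 libraries.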

How the data were processed

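For 6 TEC and 6 PMN libraries the authors deposited unnormalized estimated counts by gene symbol. The submitters' processing notes name Trim Galore 0.6.4, Salmon 1.0.0, DESeq2 and mm10. The annotation is not given in the sources used here. RNA was reverse transcribed from its polyA tail and read as 50-base single ends per the labels, so that gene copies can share reads.

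The PMN table, of unit other because the deposited counts had passed through a spreadsheet, carried extra points in 3.20% and dates in 0.391% of its values. Only the last point of a value was kept, as its decimal point, and dates were decoded to numbers. Its 2 columns per library (r of 0.995 to 0.996 in log2) were averaged as 1 replicate.

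Counts were rounded and tested with edgeR 4.0.16 (R 4.3.3), with TMM scaling and its default filter, separately for TECs and PMN. Standard errors came from the fold change and its F statistic. DESeq2 1.42.0, limma 3.58.1 (voom), RLE scaling, TMM without predicted genes, other filters and leaving out each library were the alternatives. The planned count test for PMN was kept after decoding. Scripts were tested on simulated data. Gene and exon positions came from GENCODE M21 (GRCm38). Named genes were the 10 by rule and, in each junction list, the 3 highest and the 2 with the largest fold change, plus the sort markers; 1 gene that this rule covers is not reported here. The members and lists were chosen with earlier results of these data known.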

Additional observations from a re-analysis of the deposited data

How the results depend on the processing

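None of the 9 genes passed an adjusted p of 0.05 in TECs, nor F11r in PMN, under any of the 12 alternatives run for each. The count over all TEC genes moved from 0 to 425 without an expression filter and to 308 with DESeq2, and to between 0 and 36 when 1 library was left out (36 without glutamine replicate 2 and 4 without vehicle replicate 5). In PMN DESeq2 called 237 genes against 0. Over the other junction genes in TECs the count was 1 without the filter, against 0. Cldn7, whose log2 fold change was near 0, turned to 0.049 with TMM factors from genes other than predicted, Rik and sensory receptor genes and to 0.0022 with only genes of 10 or more counts in all libraries, and it ranged from -0.45 to 0.31 when 1 library was left out. F11r in TECs ranged from -0.033 to 0.21 in the same way, and was negative without glutamine replicate 2 alone. The causes were not tested. The other 7 genes kept their sign in TECs under all 12 alternatives, with Cldn4 as low as 0.01 and Cldn8 as near 0 as -0.03. With the longest transcript, the vehicle level was 15.3 CPM per kb for Cldn7, 53.9 for F11r and 3.58 for Cldn1. No paired analysis was possible because replicate number 3 alone occurs in both TEC groups and PMN replicate numbers are names without a pairing. Cldn1 rests on 28 to 169 counts per library and Cldn8 on 46 to 180, against at least 984 for Cldn4, so that counting error is larger for the former.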
